A study of Nannospalax ehrenbergi and Mus musculus with 25 samples.

Results

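The lymphocyte and cytotoxic cell marker genes were 10 genes that label T cells, B cells and killer lymphocytes in a mixed tissue. They were taken by name and comprised the CD3 chains Cd3d, Cd3e and Cd3g, the coreceptors Cd4 and Cd8a, the B cell genes Cd79a and Ms4a1, the killing genes Gzmb and Prf1, and the natural killer receptor gene Ncr1. All 10 were rows of the mouse table among 47593 genes. The table of Spalax, with 27988 genes, held 9 of them. Gzmb had no row under that name in Spalax and was not analysed there.

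RNA-seq was done on neck muscle and on tumor tissue of Spalax, the blind mole rat, a wild-caught subterranean rodent, and of C57BL/6 mice. The design asks how untreated muscle, injected muscle that stayed free of a tumor, the tumor and the opposite side of the neck of a tumor-bearing animal differ after a single injection of 3-methylcholanthrene (3MCA) under the skin of the left neck flank. 3MCA is a carcinogen that induces sarcomas. The injected dose was 1 mg in 500 µl for Spalax and 200 µg in 200 µl for mice.

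The 16 Spalax libraries formed 6 groups. Control were 4 untreated females. Tolerant were 4 injected animals without a tumor, sampled on the injected side at 18 months (males 2251 and 2261) or 30 months (male 2218 and female 2375). These and the times below are from injection to surgery. Granuloma, a benign mass, was sampled on the injected side (IS) and the uninjected side (UIS) of females 600 (14 months) and 976 (16 months). Fibrosarcoma, a malignant tumor, was sampled in the same way in female 2240 (18 months) and male 2230 (30 months). The 9 mouse libraries, all of males aged 3 to 4 months, were 3 of untreated control, 3 of fibrosarcoma IS and 3 of the UIS of the same mice (1019 at 14 weeks, 1023 at 12 weeks and 512 at 11 weeks). The age of single Spalax was not given. All controls of Spalax were females and 3 of 4 tolerant animals males, so sex and group cannot be fully told apart there.

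Libraries held 17025447 to 23386729 reads in Spalax and 22143060 to 31179183 in mouse. Values are the deposited normalised read counts, reads divided by 1 size factor per library, so that 1 read was worth 0.517 to 1.44. A gene was tested in a comparison when at least n libraries, n being the size of the smaller group, had a value of 10 or more. In comparisons with tumors, a marker gene sparse in muscle could thus pass mainly through its tumor libraries. Differences are on the log2(value + 1) scale, from a fit over all genes of the table, and a gene was called at an adjusted p of at most 0.05. The groups hold few libraries, and p-values measure only the spread between them. Each species was normalised on its own, so levels were not tested across species.

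The labels call every library muscle, but the tumors held far lower levels of muscle transcripts than the others. The summed value of 7 muscle genes was 149 to 2781 in the 4 Spalax IS libraries and at least 679732 in the 12 others. In mouse the sum of 8 such genes was 124, 17197 and 56694 in the tumors of 1019, 1023 and 512. It was at least 1070769 in the other mouse libraries. The part of this spread in the marker values was not tested. Tolerant 2251 stood apart from the other tolerant libraries, with a summed value of leukocyte genes of 14375 against 292 to 1830, of matrix genes of 235023 against 3471 to 24800, and of muscle genes of 781039 against 1671285 to 2708689. In 1 label field granuloma UIS 976 carries a different animal number, so its tie to that animal is less firm. All libraries of tumor-bearing animals carried single indexes, and all control and tolerant libraries carried dual indexes, so index and group cannot be told apart in comparisons between them.

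T cells recognise antigen through a receptor whose signal is carried by the CD3 chains, and the coreceptors CD4 and CD8 mark helper and cytotoxic T cells. B cells carry an antibody receptor that signals through CD79A and CD79B, and CD20, the product of Ms4a1, sits on their surface. Cytotoxic T cells and natural killer (NK) cells kill a target by releasing perforin, the product of Prf1, which lets granzymes such as granzyme B enter it. NKp46, the product of Ncr1, is a receptor of NK cells. In muscle such cells are sparse, and they enter tissue during injury, infection and tumor growth. In whole tissue a lower level can come from fewer cells of a type or from less RNA per cell, which cannot be told apart here.

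In Spalax the CD3 genes were high in 3 of the 4 tumors and near the level of muscle in the fourth, the granuloma of animal 600. Cd3d, the delta chain, stood at 292 in granuloma IS 976, 28.3 in granuloma IS 600, 134 in fibrosarcoma IS 2230 and 80.5 in fibrosarcoma IS 2240. On the UIS of the same animals it stood at 2.36, 18.1, 9.95 and 15.8. The lowest tumor thus lay above the highest UIS library, and the granulomas held both the highest and the lowest tumor.

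Cd3e, the epsilon chain, stood at 89.4 and 8.71 in granuloma IS 976 and 600 and at 55.8 and 23.4 in fibrosarcoma IS 2230 and 2240. On the UIS it stood at 2.36 and 10.9 in granuloma animals 976 and 600 and at 1.42 and 6.06 in fibrosarcoma animals 2230 and 2240. Animal 600 was the only one of the 4 with a lower Cd3e value in the tumor than on its own UIS. Cd3g, the gamma chain, stood at 219, 17.4, 127 and 52.3 in the tumors of 976, 600, 2230 and 2240. Its UIS values were 1.18, 15.7, 8.53 and 10.9 in the same order, below every tumor.

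**Figure D1:**
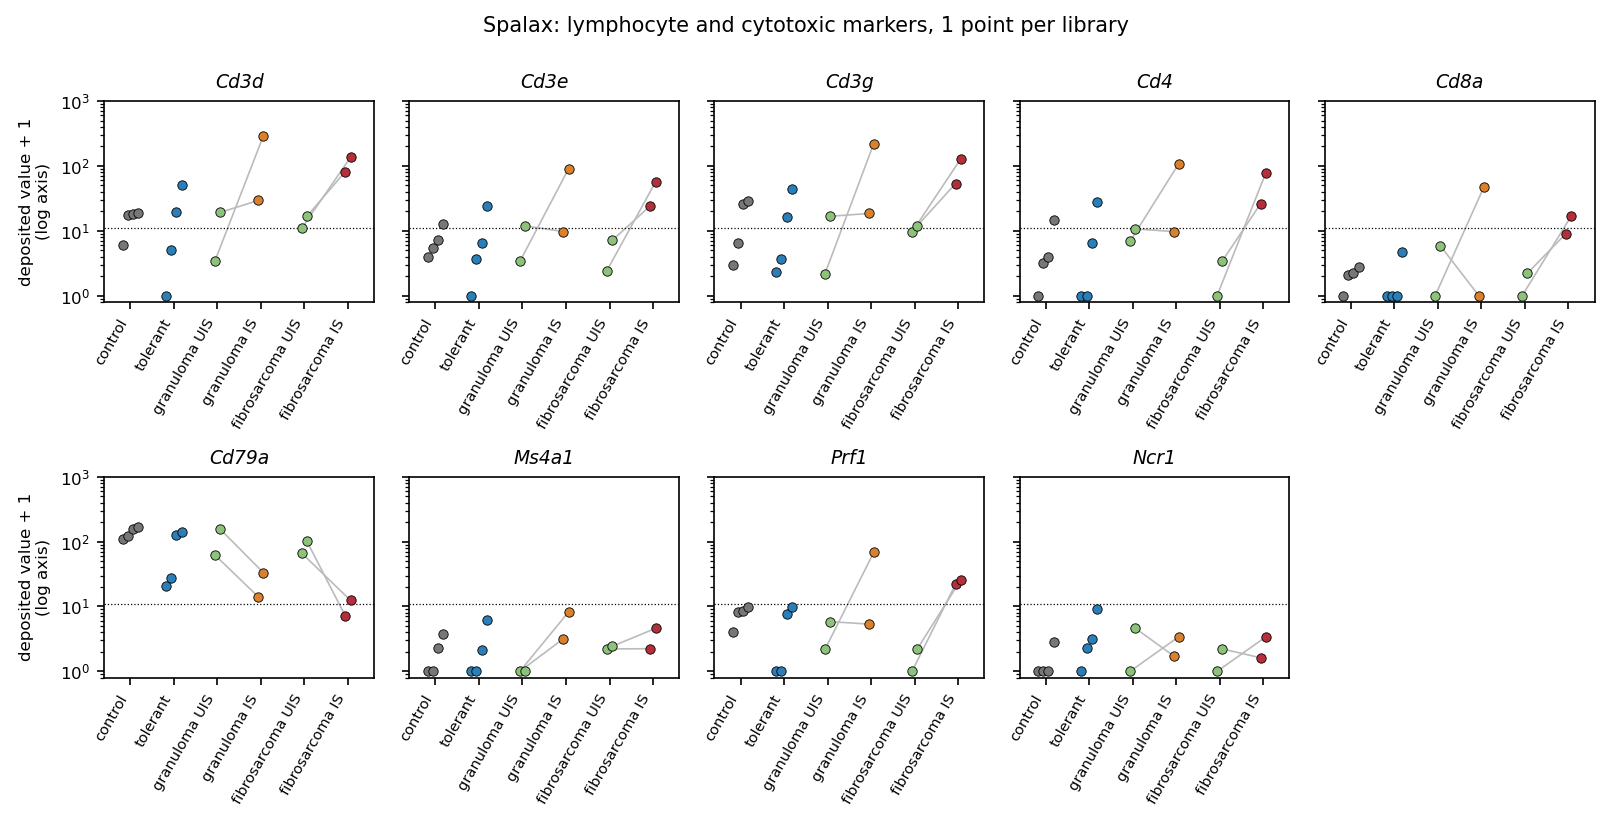
Deposited value plus 1 (log axis) of the 9 marker genes of the Spalax table by group, 1 point per library. Grey lines join the UIS and IS library of 1 animal and the dotted line marks the filter value of 10. Granuloma IS 976 tops the T cell panels at up to 292 for Cd3d, and granuloma IS 600 stays near its UIS. Cd79a is lower in the tumor than on the UIS in every tumor-bearing animal.

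Within fibrosarcoma, all 3 CD3 genes rose on the injected side. The log2 difference between IS and UIS was 2.95 ± 0.55 (SE, 2 against 2 libraries) for Cd3d with adjusted p = 0.0198, 3.17 ± 0.82 for Cd3e with adjusted p = 0.0429 and 2.95 ± 0.64 for Cd3g with adjusted p = 0.0275. With the animal as a block the call of Cd3e was lost, at adjusted p = 0.0554. In this comparison 5 of the 6 marker genes tested were called higher and 1 lower, where 17.4% of all genes tested were called higher and 19% lower. The values of all 6 did not overlap between IS and UIS, which held for 74.3% of all genes. Cd3e, Cd4 and Prf1 reached the filter value only in IS libraries, so their direction and lack of overlap followed from the filter. Cd8a, Ms4a1 and Ncr1 were under it and were not tested.

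Within granuloma, no marker gene passed the test. The log2 difference was 3.53 ± 1.45 (SE, 2 against 2 libraries) for Cd3d with adjusted p = 0.130, 2.23 ± 1.36 for Cd3e with adjusted p = 0.269 and 3.40 ± 1.59 for Cd3g with adjusted p = 0.169. The errors were wider than in fibrosarcoma, and animals 976 and 600 lay far apart on both sides. By limma 0 of 4 marker genes tested were called, beside 11.7% of all genes called higher and 12.6% lower, and 1 had an unadjusted p under 0.05. By edgeR 0 were called, where 20.2% of all genes were, and by DESeq2 3, namely Cd3d, Cd3g and Cd79a, where 36.5% of all genes were. Values of 3 of the 4 did not overlap between the sides, as for 69.8% of all genes. Without granuloma IS 976 the difference of Cd3e was 0.62, and without granuloma IS 600 it was 3.84.

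Over both tumor types together, 4 IS against 4 UIS libraries, Cd3d rose by 3.24 ± 0.80 (SE) with adjusted p = 0.00747, Cd3e by 2.70 ± 0.80 with adjusted p = 0.0182 and Cd3g by 3.18 ± 0.89 with adjusted p = 0.0140. This comparison uses the libraries of the granuloma and fibrosarcoma comparisons again. It called 3 of 4 marker genes tested higher and 1 lower, where 26.1% of all genes were called higher and 26.5% lower, and 3 of 4 did not overlap against 50% of all genes. The median difference of the 4 was 2.94 against 0.01 over all genes. None of the 3 CD3 genes would have passed the filter on its UIS libraries alone. The count called higher and the median thus describe CD3 genes that the filter kept for being high in tumors. Cd3e lost its call with the animal as a block, at adjusted p = 0.0546, and without both libraries of animal 976 Cd3e and Cd3g lost theirs, at adjusted p = 0.0958 and 0.0602. The same genes lost theirs without both libraries of animal 2230, at 0.109 and 0.0653, and Cd3e alone without those of animal 2240, at 0.0510. Of the single libraries, leaving out granuloma IS 976 or fibrosarcoma UIS 2230 ended the call of Cd3e, at 0.0530 and 0.0519.

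The coreceptor genes ranked the 4 Spalax tumors in the same order as Cd3d did. Cd4, which marks helper T cells and is also made by some macrophages, stood at 108 and 8.71 in granuloma IS 976 and 600 and at 77.4 and 25.2 in fibrosarcoma IS 2230 and 2240. The UIS libraries of 976, 600, 2230 and 2240 gave 5.89, 9.65, 0 and 2.42. In fibrosarcoma Cd4 rose by 4.61 ± 0.94 (SE) on the log2 scale with adjusted p = 0.0241, the highest difference among the marker genes tested there. Cd4 reached the filter value there only in IS libraries, so the direction of this difference followed from the filter. In granuloma, animal 600 held 8.71 in the tumor and 9.65 on the UIS, and Cd4 did not reach the filter.

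Cd8a, which marks cytotoxic T cells, was sparse in Spalax and was under the filter in every comparison within an animal. It stood at 46.5 in granuloma IS 976, resting on 77 reads, at 15.6 and 7.99 in fibrosarcoma IS 2230 and 2240, resting on 26 and 13 reads, and at 0 in granuloma IS 600. The 12 muscle libraries held 0 to 4.82, and 6 of them held no read.

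Prf1, which encodes perforin, stood at 67.1 and 4.36 in granuloma IS 976 and 600 and at 21.0 and 24.6 in fibrosarcoma IS 2230 and 2240. On the UIS of 976, 600, 2230 and 2240 it stood at 1.18, 4.82, 0 and 1.21. The fibrosarcomas were close to each other and above both UIS libraries, and granuloma 600 again lay at the level of its UIS. In fibrosarcoma Prf1 rose by 4.00 ± 0.64 (SE) on the log2 scale with adjusted p = 0.0140, and in granuloma it was under the filter. Prf1 reached the filter value in fibrosarcoma only in IS libraries, so the direction of its difference followed from the filter. The fibrosarcoma fit without either UIS library called 0 of the 6 marker genes and 0% of all genes, with adjusted p of 0.0776 to 0.187 without UIS 2240 and of 0.113 to 0.244 without UIS 2230, and without IS 2230 the call of Cd3e was lost at 0.0549, while every difference kept its direction.

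Ncr1 and Ms4a1 were near zero in Spalax. Ncr1 reached at most 8.26 (11 reads, tolerant 2251) and had no read in 6 of the 16 libraries. Among the tumors its highest value was 2.42, so a level of Ncr1 above that of muscle was not detectable in them at this depth. Ms4a1 reached at most 7.25 (12 reads, granuloma IS 976) and had no read in 6 libraries.

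Unlike Cd3d and Cd3g, Cd79a was lower in the tumors of Spalax than on the UIS. In the tumors it stood at 32.0 and 13.1 in granuloma 976 and 600 and at 11.4 and 6.15 in fibrosarcoma 2230 and 2240. On the UIS it stood at 155, 61.5, 65.4 and 99.4 in the same order, and it was lower in the tumor in 4 of 4 animals. Control libraries 1042, 1075, 2095 and 6038 held 109, 120.4, 153 and 165, so the highest Cd79a values of the series lay in muscle.

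The fall of Cd79a on the log2 scale was -3.12 ± 0.57 (SE, 2 against 2 libraries) in fibrosarcoma with adjusted p = 0.0190, -2.20 ± 0.84 in granuloma with adjusted p = 0.113, which did not pass, and -2.66 ± 0.55 over both tumor types with adjusted p = 0.00303. Ms4a1 was near 0 in the control libraries, where Cd79a was high, and Cd79b rested on few reads there. The B and plasma cell partner list as a whole was not near 0. In the 4 control libraries Cd79a rested on 99 to 166 reads, while Ms4a1 rested on 0 to 3 and Cd79b, the partner chain of Cd79a, on 0 to 12. The summed value of the partner list was 212 to 527 in the controls and 361 to 1681 in the tumors. The summed level of muscle genes was high in the same libraries, and its part in the Cd79a values was not tested.

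Muscle of Spalax without a tumor showed no called marker gene between groups. Controls 1042, 1075, 2095 and 6038 gave Cd3d values of 16.6, 17.1, 17.5 and 4.97, and tolerant 2218, 2251, 2261 and 2375 gave 3.97, 49.5, 18.6 and 0. The tolerant libraries thus reached both below and above the controls. For Cd3g the controls gave 5.52, 25.2, 27.4 and 1.99 and the tolerant libraries 2.64, 43.5, 15.3 and 1.34, with the same library, 2251, at the top.

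Against control, tolerant muscle gave 0 calls among the 3 marker genes tested (Cd3d, Cd3g and Cd79a), where 0% of all genes were called. The log2 difference of Cd79a was -1.27 ± 0.62 (SE, 4 against 4 libraries) with adjusted p = 0.923, from tolerant values of 139, 19.5, 127 and 26.8 in 2218, 2251, 2261 and 2375, which split into a pair at the control level and a pair below it. UIS of tumor-bearing Spalax against control likewise gave 0 calls among the same 3 genes, where 0% of all genes were called, with Cd79a at -0.60 ± 0.34 and adjusted p = 0.392. None of these 3 genes had an unadjusted p under 0.05 in either comparison, and edgeR and DESeq2 called none of them, although DESeq2 called 60 genes of the whole table between tolerant and control and 516 between UIS and control.

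Tumor tissue was next set against tolerant muscle, both from the injected side. Cd3d was higher in tumors by 3.56 ± 1.20 (SE, 4 against 4 libraries) on the log2 scale with adjusted p = 0.0361, Cd3g by 3.03 ± 1.07 with adjusted p = 0.0440 and Cd4 by 3.39 ± 1.21 with adjusted p = 0.0451. Cd3e at 2.76 ± 1.04 and Cd79a at -1.99 ± 0.77 did not pass, at adjusted p = 0.0543 and 0.0608. These were 3 of 5 marker genes called higher and 0 lower, where 22.4% of all genes were called higher and 24% lower. None of the 5 was free of overlap, against 41.7% of all genes. The median difference of the 5 was 3.03 against 0.06 over all genes. The CD3 genes and Cd4 would not have passed the filter on their tolerant libraries alone. The count called higher and the median thus describe genes that the filter kept for being high in tumors. Tolerant 2251 lay within the range of the tumors for each of the 5.

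In tolerant 2251 Cd3e stood at 23.3 and Cd4 at 27, while the other 3 tolerant libraries held 0 to 5.47 of either. The level of Cd3e in 2251 equalled that of fibrosarcoma IS 2240 at 23.4. Without 2251 all 5 genes were called, 4 higher with differences of 3.53 to 4.42 and Cd79a lower at -2.48, with adjusted p of 0.00802 to 0.0231, while 27.1% of all genes were called higher and 25.9% lower. The call also rested on single other libraries. The count was 1 without tolerant 2261 (Cd3d) or granuloma IS 976 (Cd79a, lower) and 0 without tolerant 2218, tolerant 2375 or either fibrosarcoma. Those fits called 36.3%, 38%, 34.4%, 36.3% and, without fibrosarcoma IS 2240 or 2230, 40.6% and 42% of all genes.

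No marker gene passed a test between fibrosarcoma and granuloma. Between their IS libraries 0 of 7 marker genes tested were called, where 0% of all genes were called, with differences of -1.20 for Cd79a to 0.83 for Cd8a. The direction changed with 1 library. Without granuloma IS 600 the difference of Cd8a was -1.96, and those of the CD3 genes, Cd4 and Prf1 were also below 0, from -1.52 to -1.26, with none called. In the test of whether the difference between sides itself differed between tumor types, 0 of 7 were called, again with 0% of all genes. No marker gene had an unadjusted p under 0.05 in either test, and edgeR and DESeq2 called none of them, while DESeq2 called 153 and 88 genes of the whole table. The widest gap of the interaction was that of Cd4, at 2.69 ± 1.82 (SE).

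**Figure D2:**
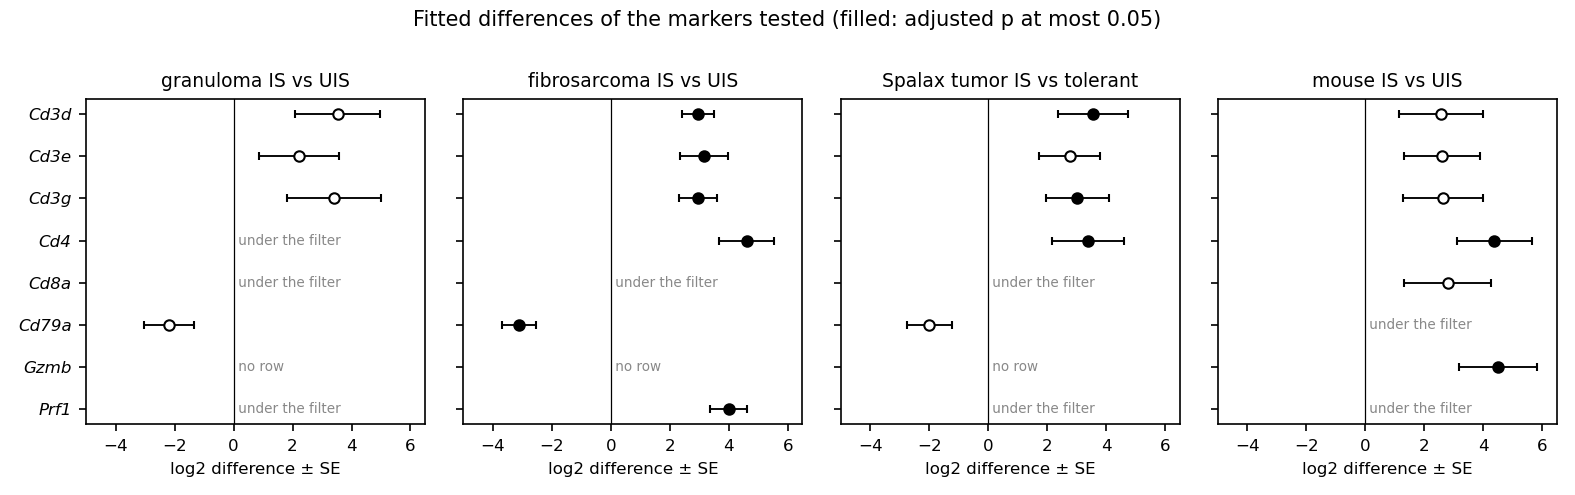
Fitted log2 difference with its SE (horizontal axis) of the marker genes tested in granuloma, fibrosarcoma and mouse IS against UIS and in Spalax tumor against tolerant muscle. Filled points passed an adjusted p of 0.05 and open points did not. CD3 differences lie near 3 in granuloma and fibrosarcoma with wider errors in granuloma, and Cd79a is on the negative side in all 3 Spalax comparisons.

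In mouse the marker genes lie at separate loci of GRCm38, the build named in the submitters' notes, as annotated in GENCODE vM21. The CD3 genes form a cluster on chromosome 9, with Cd3g at 44969572 to 44980431 on the minus strand, Cd3d at 44981786 to 44987339 on the plus strand and Cd3e at 44998740 to 45009627 on the minus strand. Cd4 (chromosome 6, 124864692 to 124888221, minus) and Cd8a (chromosome 6, 71373427 to 71379173, plus) share a chromosome, as do Cd79a (chromosome 7, 24897381 to 24902197, plus) and Ncr1 (chromosome 7, 4337724 to 4345164, plus). Gzmb lies on chromosome 14 (56258838 to 56262260, minus), Prf1 on chromosome 10 (61297833 to 61304680, plus) and Ms4a1 on chromosome 19 (11249675 to 11266241, minus). All are protein-coding. Of their exon bases, only 3.31% of those of Cd3e lie under another gene, the antisense gene Gm48719, and the strand setting of the counting was not given.

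In every mouse the CD3 genes were higher in the tumor than on its own UIS, and mouse 1019 was highest on both sides. Cd3d stood at 165, 21.4 and 10.0 in the tumors of 1019, 1023 and 512, at 18.1, 9.28 and 0 on their UIS and at 0.815, 3.01 and 12.1 in controls M1, M2 and M5. Cd3e stood at 234, 24.9 and 16.3 in the tumors of 1019, 1023 and 512, at 30.2, 5.16 and 1.44 on their UIS and at 0, 2.01 and 7.80 in the controls. The UIS of 1019 thus held more Cd3e than the tumors of 1023 and 512, and the groups overlapped.

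Cd3g stood at 309, 45.1 and 17.9 in the tumors of 1019, 1023 and 512, at 39.9, 10.3 and 1.44 on the UIS and at 0, 1.00 and 13.5 in the controls. The log2 difference between IS and UIS was 2.57 ± 1.42 (SE, 3 against 3 libraries) for Cd3d, 2.60 ± 1.30 for Cd3e and 2.63 ± 1.36 for Cd3g, and none passed, with adjusted p of 0.181, 0.145 and 0.156. With the mouse as a block the same differences had an SE of 0.67, 0.50 and 0.50 and passed, with adjusted p of 0.0350, 0.0167 and 0.0161. The spread between mice was thus larger than the spread of the difference within mice.

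The coreceptors showed the same order of mice. Cd4 stood at 361, 75.9 and 46.3 in the tumors of 1019, 1023 and 512, at 19.3, 6.19 and 0 on the UIS and at 5.70, 2.01 and 19.1 in the controls. It rose by 4.38 ± 1.27 (SE) on the log2 scale with adjusted p = 0.0311, and its tumors lay above all UIS and control libraries. Cd8a stood at 709.7, 81.3 and 31.6 in the tumors of 1019, 1023 and 512, at 79.8, 17.5 and 2.88 on the UIS and at 0.815, 4.02 and 9.93 in the controls, and its log2 difference of 2.79 ± 1.47 did not pass (adjusted p = 0.163) except with the mouse as a block (adjusted p = 0.0132).

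Gzmb, which encodes granzyme B, stood at 474, 417 and 29.5 in the tumors of 1019, 1023 and 512, at 31.4, 3.09 and 2.88 on the UIS and at 0.815, 1.00 and 7.09 in the controls. It rose by 4.51 ± 1.33 (SE) with adjusted p = 0.0328, although the tumor of 512 lay below the UIS of 1019. Gzmc, a granzyme gene with sequence close to that of Gzmb, held 729 in the tumor of 1023 and 31.5 and 18.9 in those of 1019 and 512, and how reads shared by such genes were assigned is not given, so the split between them is uncertain. In the tumor of 1023, Gzmb was at the level of 1019 while Cd3e was 24.9 against 234.

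Of the 6 mouse marker genes tested between IS and UIS, 2 were called higher and 0 lower, where 22.8% of all genes were called higher and 22.3% lower, and 1 of 6, Cd4, did not overlap, against 60.2% of all genes. Their median difference was 2.71 against 0.11 over all genes. Each of the 6 reached the filter value in every IS library, and none would have passed on its UIS libraries alone. Prf1, Ncr1, Cd79a and Ms4a1 fell short in a tumor and dropped out. The count and the median thus describe genes that the filter kept for being high in tumors. With the mouse as a block all 6 were called higher, where 23.2% of all genes were called higher. The calls of Cd4 and Gzmb were lost when IS 1019, IS 1023, UIS 1023 or UIS 512 was left out, with adjusted p of 0.0557 to 0.0917 for Cd4 and of 0.0911 to 0.105 for Gzmb. Those fits called 31.5%, 27.8%, 30.4% and 46.1% of all genes. Without both libraries of mouse 1023 the adjusted p were 0.144 and 0.232, where 0.756% of all genes were called, and without both of mouse 1019 Gzmb gave 0.0547 and Cd4 kept its call, where 25.8% were called.

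**Figure D3:**
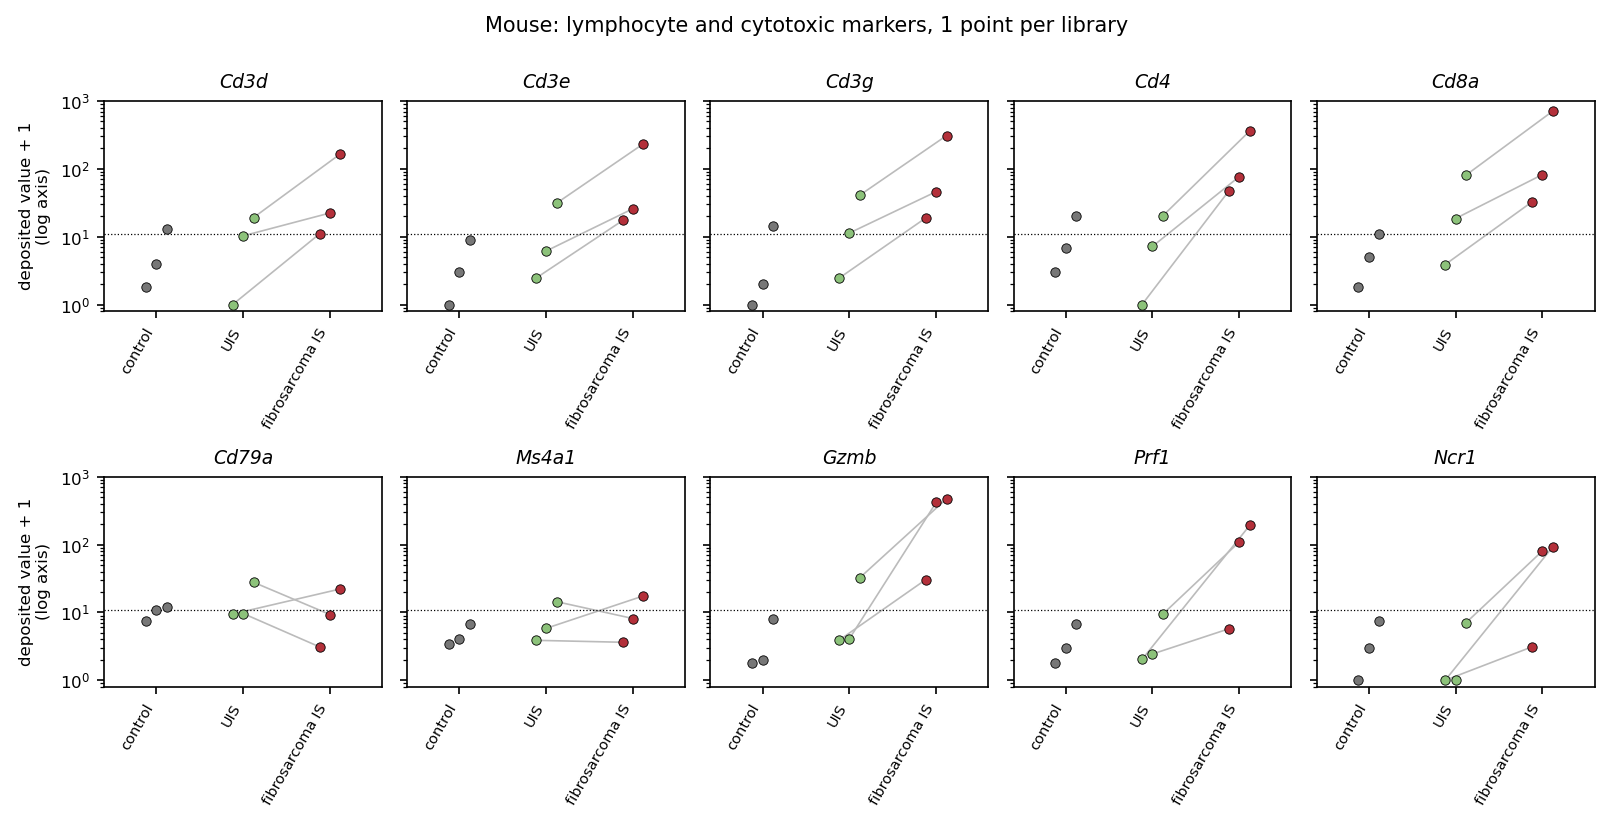
Deposited value plus 1 (log axis) of the 10 marker genes in mouse by group, 1 point per library. Grey lines join the UIS and IS library of 1 mouse and the dotted line marks the filter value of 10. The lines of the T cell genes all run upward from UIS to IS, while for Gzmb, Prf1 and Ncr1 the tumors of 1019 and 1023 lie close together, above that of 512.

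Prf1 and Ncr1 separated the mouse tumors in another way than the T cell genes did. Prf1 stood at 109, 191 and 4.74 in the tumors of 1019, 1023 and 512, at 8.46, 1.03 and 1.44 on the UIS and at 0.815, 2.01 and 5.67 in the controls. Ncr1 stood at 79.6, 91.9 and 2.11 in the tumors of 1019, 1023 and 512, at 6.05, 0 and 0 on the UIS and at 0, 2.01 and 6.38 in the controls. Both genes were highest in 1023, which had far less Cd3e than 1019, and the tumor of 512 lay within the range of the controls for both. As 1 tumor of 3 stayed below 10, both were under the filter and were not tested.

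The B cell genes stayed low in mouse. Cd79a stood at 21.2, 8.30 and 2.11 in the tumors of 1019, 1023 and 512, at 8.46, 26.8 and 8.64 on the UIS and at 9.78, 11.0 and 6.38 in the controls. Ms4a1 stood at 16.5, 7.12 and 2.63 in these tumors and at 4.84, 13.4 and 2.88 on the UIS. Both were higher in the tumor in 1 of 3 mice and were highest among the UIS libraries in mouse 1023. That library also held a summed value of neutrophil genes of 15564, against 316 and 376 in the other UIS libraries, and the part of this in its B cell values was not tested.

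Between UIS and control in mouse only Cd3g reached the filter, at a log2 difference of 1.76 ± 1.33 (SE, 3 against 3 libraries) with adjusted p = 0.586. Thus 0 of 1 marker genes tested was called, where 0% of all genes were called. Its unadjusted p was 0.225, and edgeR and DESeq2 did not call it, while DESeq2 called 342 genes of the whole table.

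Corrected for exon length, the marker genes of the mouse tumors stood in a different order in each animal. In tumor 1019 Gzmb was highest at 25.9 RPKM, reads scaled to the gene's exon length and the library's reads, followed by Cd8a at 15.3, Cd3g at 7.41, Cd3d at 7.16 and Cd4 at 7.03. In tumor 1023 Gzmb was at 20.6, Prf1 at 5.25 and Ncr1 at 4.24, above Cd8a at 1.59 and Cd3d at 0.835. In tumor 512 Gzmb was at 1.5 and Cd4 at 0.842, while Prf1 was at 0.134. Ms4a1 did not exceed 0.210 in any library.

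The CD3 genes were also set against Ptprc, which encodes CD45 and is carried by all white blood cells. Ptprc stood at 605 to 2005 in the Spalax tumors and at 33.0 to 309 on the UIS, with a log2 difference of 3.41 ± 0.66 (SE) and adjusted p = 0.00209 over both tumor types. The summed reads of the 3 CD3 genes per 1000 Ptprc reads were 326 in granuloma IS 976, 89.9 in granuloma IS 600, 158 in fibrosarcoma IS 2230 and 151 in fibrosarcoma IS 2240. In the 12 Spalax muscle libraries this ratio ran from 23.8 to 651, with a median of 179 against 155 in the tumors. The lowest, tolerant 2375, rested on 1 CD3 read against 42 Ptprc reads (95% exact interval 0.589 to 140). Tolerant 2251, with 155 CD3 reads, gave 65.8 (55.6 to 77.5). The highest, control 2095, rested on 41 CD3 reads (428 to 980). The tumors thus lay within the range of muscle, many of whose ratios rest on few reads.

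In mouse the ratio was 98.4, 33.3 and 46.2 CD3 reads per 1000 Ptprc reads in the tumors of 1019, 1023 and 512 and 134, 38.0 and 52.6 on the UIS. It was lower in the tumor in each mouse, and in each the 95% exact intervals of the 2 sides overlapped. The order of the 3 mice was the same on both sides.

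**Figure D4:**
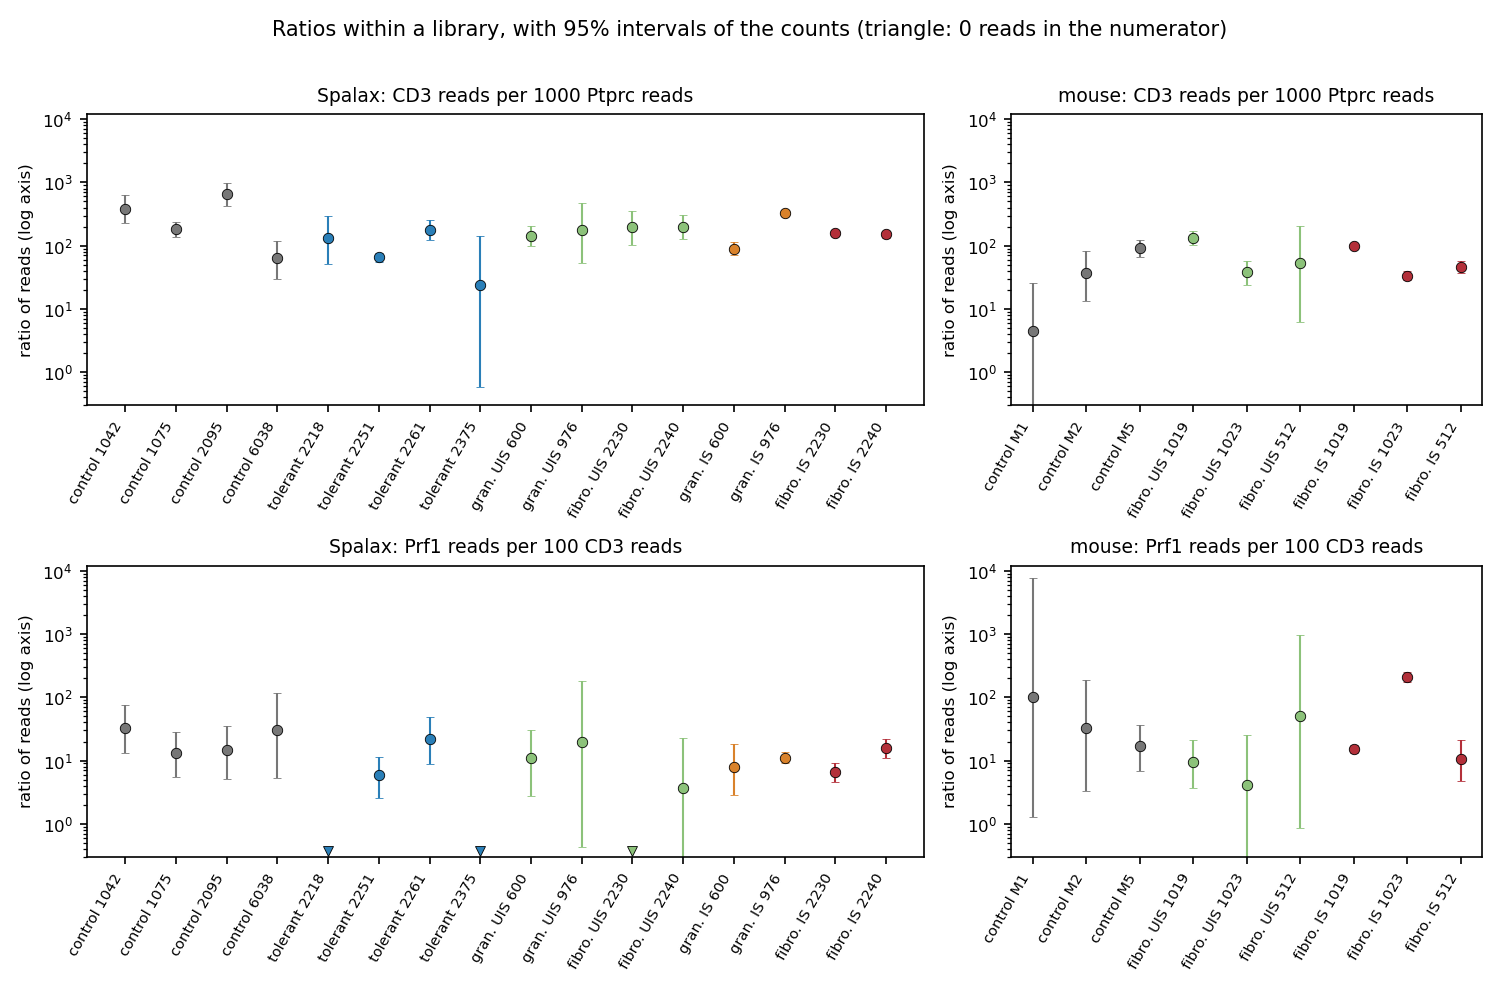
Reads of the CD3 genes per 1000 Ptprc reads (upper) and of Prf1 per 100 CD3 reads (lower) in every library on a log axis, with 95% exact intervals that cover counting error only and a triangle where the gene counted had 0 reads. Tumors lie within the range of muscle for CD3 per Ptprc, and mouse tumor 1023 stands out in Prf1 per CD3 at 209.

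Prf1 reads per 100 CD3 reads were 11.2 in granuloma IS 976 (95% exact interval 9.08 to 13.6), 8.0 in granuloma IS 600 (2.85 to 18.2), 6.62 in fibrosarcoma IS 2230 (4.56 to 9.32) and 15.7 in fibrosarcoma IS 2240 (11.0 to 22.0). The fibrosarcomas did not overlap and the granulomas did. In mouse the same ratio was 15.3 (13.2 to 17.8) in tumor 1019, 209 (172 to 255) in tumor 1023 and 10.7 (4.74 to 21.3) in tumor 512, so 1023 lay far above the others. Cd8a reads per Cd4 read were 1.97 in tumor 1019 (1.79 to 2.16), 1.07 in 1023 (0.835 to 1.37) and 0.682 in 512 (0.483 to 0.957). In Spalax they were 0.433 in granuloma IS 976 (0.327 to 0.568), 0.202 in fibrosarcoma IS 2230 (0.127 to 0.309) and 0.317 in fibrosarcoma IS 2240 (0.156 to 0.604). Granuloma IS 600 had 0 Cd8a reads against 12 Cd4 reads (interval 0 to 0.360). The ratios of Spalax and mouse were not compared, since gene models differ.

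Other genes of these cell types were counted from lists, and whether tumor types differ in these counts was not tested. In this and the other lists below, a gene rose or fell only if it was called. Over all genes tested, 11.7% in granuloma, 17.4% in fibrosarcoma and 22.8% in mouse were called higher, and 12.6%, 19% and 22.3% lower. Of 20 T cell partner genes, 0 of 12 tested rose in granuloma IS against UIS, 7 of 14 in fibrosarcoma and 1 of 16 in mouse (Tcf7, 2.32), and none fell. The median difference of those tested was 2.19 in granuloma, 2.59 in fibrosarcoma and 2.22 in mouse. Genes sparse in muscle could pass the filter mainly through tumor libraries, so these medians describe only the genes kept. The highest and lowest differences were those of Cd27 (3.53) and Ubash3a (-0.91) in granuloma, Il7r (4.73) and Ubash3a (-1.13) in fibrosarcoma, and Pdcd1 (3.68) and Cd247 (-0.75) in mouse. Cd247, which encodes the zeta chain of the T cell receptor complex, did not follow the CD3 genes, at -0.64 ± 0.53 (SE) in granuloma with adjusted p = 0.409 and 0.53 ± 0.35 in fibrosarcoma with adjusted p = 0.295.

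Among the NK and cytotoxic partner genes, 1 of 5 tested rose in granuloma (Tyrobp), 4 of 6 in fibrosarcoma (Ctsw, Il2rb, Nkg7 and Tyrobp) and 2 of 11 in mouse (Ctsw and Gzmc), where 1 fell (Gzmm). Il2rb, an interleukin 2 receptor chain, had the highest difference in granuloma (4.88, adjusted p = 0.0821) and fibrosarcoma (4.00, adjusted p = 0.00983), and Cst7 (2.21) and Tbx21 (1.62) had the lowest. In mouse Gzmc was highest (5.90) and Gzmm lowest (-4.27). Klrd1, an NK receptor gene, held 271, 163 and 16.3 in the mouse tumors of 1019, 1023 and 512 and Gzma 131, 57.5 and 6.32, which was the order of Cd3e and not that of Prf1.

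Among the B and plasma cell partner genes, 1 of 5 tested rose in granuloma (Pou2af1, 5.90, adjusted p = 0.0370), 1 of 5 in fibrosarcoma (Jchain, 3.04, adjusted p = 0.0454) and 0 of 9 in mouse, where Cd22 was highest at 2.28, and none fell. The lowest were Mzb1 (-0.43), Spib (-1.97) and Mzb1 (-1.41). Of the general leukocyte genes 4 of 7 rose in granuloma, 7 of 7 in fibrosarcoma and 4 of 8 in mouse, and none fell. Their differences ran from 2.75 (Laptm5) to 3.84 (Itgb2) in granuloma, from 3.15 (Laptm5) to 4.05 (Coro1a) in fibrosarcoma and from 2.46 (Rac2) to 3.47 (Vav1) in mouse, close to those of the CD3 genes.

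Markers of other cells moved as well, and their part in the results above was not tested. Of the macrophage genes 5 of 9 rose in granuloma, 4 of 9 in fibrosarcoma and 6 of 10 in mouse, with Adgre1 (5.45), Adgre1 (4.07) and Fcgr1 (4.20) highest and, in fibrosarcoma and mouse, Cd163 (0.54 and -0.94) lowest. For neutrophil genes it was 0 of 5, 2 of 4 and 0 of 5, with Csf3r highest (3.55, 4.12 and 1.04) and Cxcr2 (1.28), S100a8 (2.85) and Ngp (-1.72) lowest. For mast cell genes it was 0 of 2, 1 of 2 and 0 of 7, with Kit (2.41), Kit (1.78) and Fcer1a (2.53) highest and Cpa3 (-2.25), Cpa3 (-3.06) and Hdc (-0.22) lowest.

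Dendritic cell genes rose in 0 of 3, 3 of 6 and 1 of 7 cases in granuloma, fibrosarcoma and mouse, where 1 also fell, with Itgax highest (4.34, 6.54 and 5.68) and Zbtb46 lowest (0.05, -1.46 and -1.85). Lymph node genes rose in 0 of 2, 1 of 2 and 1 of 4 cases, with Ltb (3.44), Ltb (2.81) and Tnfsf11 (5.33) highest and Ccl21a (-1.23), Ccl21a (-1.45) and Cxcl13 (-1.64) lowest. Of the thymocyte list no gene was tested in Spalax, and in mouse 0 of 2 passed, Themis2 at 2.40 and Cd1d1 at 0.49. Rag1, Rag2, Dntt and Ptcra of that list were under the filter in mouse as well. Matrix genes rose in 7 of 8, 4 of 8 and 7 of 8 cases, with Postn (11.38), Lox (4.88) and Col1a1 (5.64) highest and Thy1 (-2.50), Thy1 (-1.37) and Lox (3.12) lowest. Muscle genes fell in 7 of 7, 7 of 7 and 8 of 8 cases, between Actn3 (-6.16) and Ckm (-12.02), Actn3 (-10.95) and Ckm (-16.01), and Mylpf (-8.07) and Myh4 (-11.86).

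The genes whose pattern was most like that of a marker gene were found by Pearson's r of log2(value + 1). The points share the libraries and the split into tumor and muscle, so r is given as a description. Over the 16 Spalax libraries the 5 genes most like Cd3e were Lck, the T cell receptor kinase (r = 0.96), Napsa (0.96), Cd3d (0.95), Lrrc25 (0.95) and Ctss (0.95). Over the 9 mouse libraries they were Cd8a (0.99), Cd3g (0.99), Serpina3f (0.98), Ms4a4b (0.97) and Smap2 (0.97).

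Prf1 was most like Srgn, which encodes a granule proteoglycan (r = 0.90), Pydc1 (0.90), Slamf1 (0.90), LOC103751395 (0.89) and LOC103729806 (0.89) in Spalax, with Cd3e seventh at 0.88. In mouse it was most like Colec10 (0.99), Plxdc1 (0.98), Ncr1 (0.98), Dab2 (0.98) and Slit2 (0.98), with Gzmb at 0.96 and Cd3e at 0.81.

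Cd79a was most like LOC103752359 (r = 0.92), Iqcg (0.92), Cog5 (0.92), Ciao1 (0.91) and Adra2c (0.91) in Spalax, none of them on the B cell list, and its r with the muscle gene Ckm was 0.79 and with Cd3e -0.51. In mouse Cd79a was most like Ighd, the constant region gene of the IgD antibody (r = 0.95), Cept1 (0.92), Gimap5 (0.91), 4930486L24Rik (0.89) and Gimap8 (0.89). There its r with Ms4a1 was 0.71 and with Ckm -0.05.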

How the data were processed

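RNA-seq libraries of Spalax and mouse tissue were made by the authors with a strand-specific kit, and reads were trimmed, mapped and counted per gene. Per the labels, the submitters' processing notes name TopHat 1.4.1, HTSeq, DESeq and GRCm38; the strand setting of the counting is not given in the sources used here. The deposited tables, one for Spalax and one for mouse, hold a signal for each gene: the authors took read counts and scaled every library by its own size factor. In the Spalax table a lower-case t of a gene name stands as a comma, in 2387 names, and was restored. Every value was a whole multiple of the value of 1 read (tolerance 0.001), so whole reads were recovered. Reads carry no molecular identifiers, and intervals cover counting error only.

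Comparisons were fitted in R 4.3.3 with limma 3.58.1 (linear model, moderated with a mean trend) on log2(value + 1), a scale that understates changes of low genes, without covariates, keeping genes that reached 10 in n libraries, n being the size of the smaller group (interaction: 2), with Benjamini-Hochberg adjustment over all genes tested. Alternatives were a pseudocount of 0.1, no filter, scaling by total reads, edgeR 4.0.16 (quasi-likelihood) and DESeq2 1.42.0 (Wald) on recovered reads, 1 model over all libraries of a species, leaving out libraries, and the animal as a block. IS and UIS libraries pair by the animal number in the labels. The same-animal correlation of deviations from group means was 0.01 in granuloma, -0.002 in fibrosarcoma and 0.05 to 0.18 in mouse. The main fit was also run on simulated counts, for fibrosarcoma and mouse IS against UIS and for tumor against tolerant. The spread there was set in advance and only well-counted genes were changed. That run therefore does not show how the fit behaves for sparse marker genes.

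All 10 marker genes are named. From each other gene list the gene with the highest and the lowest difference is named, with Ptprc, Cd247, Gzma and Klrd1 added by rule, and Cd79b, Gzmc, Tcf7, Tyrobp, Ctsw and Nkg7 added after their values were seen. Some genes that the rule names are not reported here. For likeness the 5 genes with the highest r are named, among genes at 10 or more in at least 2 libraries. The members and lists were chosen with earlier results of these data known.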

Additional observations from a re-analysis of the deposited data

Results flagged for a closer look

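Each marker gene was examined in control, tolerant, tumor IS and tumor UIS of Spalax, giving 36 sets of 4 libraries. Of these sets, 3 held a library far from the others. For well-counted values chance gives about 1 in 20 sets. That rate does not hold where all libraries but 1 had no read, as for Cd8a and Ncr1 below. There any library with a read stands apart, so the count of 3 cannot be set against chance. Cd3d in control 6038 was the lowest of its group at 4.97 (5 reads), below 16.6 to 17.5 in the other controls. Cd8a in tolerant 2251 was the highest of its group at 3.75 (5 reads), while the other tolerant libraries had no read. Ncr1 in control 1075 was the highest of its group at 1.80 (2 reads), while the other controls had no read.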

How the results depend on the processing

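No marker gene's reported log2 difference between sides, or between tumor and tolerant, changed direction under an alternative. Between fibrosarcoma IS and granuloma IS the uncalled 0.83 of Cd8a became -1.004 with edgeR and -1.01 with DESeq2, and ran from -1.96 (without granuloma IS 600) to 3.61 (without granuloma IS 976) on leaving out a library; the cause was not tested. The CD3 genes, Cd4 and Prf1 were also below 0 there with edgeR, DESeq2 and without granuloma IS 600. Over the alternatives of the differences given by value, 340 refitted differences stayed on the same side of the threshold, 66 lost a call and 17 gained it. In granuloma DESeq2 called 3 of 4 marker genes in place of 0. In fibrosarcoma the model over all libraries called 3 of 6 in place of 6. For tumor against tolerant the count of 3 became 1 with a pseudocount of 0.1, without the filter and with edgeR, and 5 with the model over all libraries. In mouse the count of 2 became 1 with a pseudocount of 0.1 and 6 with the animal as a block. Leaving out libraries gave 0 to 6 calls in fibrosarcoma, 2 to 4 over both Spalax tumor types, 0 to 5 for tumor against tolerant and 0 to 2 in mouse. Leaving out both libraries of an animal was added after seeing the data. The block changed no call beside those of Cd3e in Spalax and of Cd3d, Cd3e, Cd3g and Cd8a in mouse. No alternative called a marker gene between tumor types, in the interaction, between UIS and control in either species, or between tolerant and control. A value of 10 rests on few reads, so counting error limits Cd8a, Ms4a1, Ncr1 and Prf1 in muscle.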
